A study of Mus musculus with 8 samples.

Results

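Glycolysis enzymes of the mouse renal cortex were examined as a set of 10 genes: the hexokinase genes Hk1 and Hk2, the phosphofructokinase genes Pfkl, Pfkm and Pfkp, the aldolase gene Aldoa, the phosphoglycerate kinase gene Pgk1, the enolase gene Eno1, and the lactate dehydrogenase genes Ldha and Ldhb. They were chosen by gene symbol, and all 10 were found among the 23504 gene symbols of the deposited tables. RNA came from the outer cortex of kidneys of C57Bl6/J mice, all wild type. The mice were fed either high fat or control diet from 6 weeks of age for 9 weeks and were 15 weeks old at sampling, with 4 libraries for each diet. The high fat libraries are A, B, F and G and the control libraries are I, J, L and M. The letters differ between the diets, so no library is paired with another. Whether the libraries stem from separate mice is not given in the labels. The p-values weigh the diet difference against the spread among libraries of a diet, which need not equal that among mice.

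Glycolysis splits 1 glucose into pyruvate in the cytosol, and lactate dehydrogenase interconverts pyruvate and lactate. Hexokinase and phosphofructokinase catalyse early steps and are among the main points of control. Most steps are served by several isozymes that differ by tissue. In the kidney the proximal tubule makes glucose and draws its energy mainly from fatty acids and other oxidised fuels, whereas glycolytic activity is higher in the distal nephron and the medulla.

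Total expected counts ran from 23503593 to 30781585 per library. Rn45s, the precursor of ribosomal RNA, took 50.3% of them in control J and 1.23% to 13.3% in the other 7 libraries, and it was left out before normalization. That left 13993652 counts in control J and 21793784 to 30403685 in the others. The tissue label was checked against marker genes. The summed level of 10 proximal tubule markers ran from 30635 to 34555 CPM (counts scaled to a common library size), and the lowest marker, Slc22a8, had at least 300.1 CPM in each library. Of 7 fat markers 6 (Adipoq, Plin1, Cidec, Lep, Cfd and Retn) stayed under 1 CPM in each library, and so did 8 of 9 skeletal muscle markers. The exceptions were Fabp4, which endothelium also expresses, at 36.9 to 41.2 CPM on the high fat diet and 31.01 to 38.74 on the control diet (unadjusted p = 0.0456, edgeR adjusted p = 0.172), and Pygm, at 5.18 to 8.09 CPM. Muscle is rich in Pfkm, Aldoa and Ldha protein, and the muscle genes Ckm, Myh4, Myh1, Tnnc2 and Tnnt3 had no counts in at least 1 library each.

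Among the 10 genes, the lower part of the pathway was far more abundant than the entry steps. Levels between genes are compared here as FPKM (fragments per kilobase of transcript, scaled to library size), which accounts for length, rescaled so that each library has the same sum without Rn45s. Ldhb, the heart-type lactate dehydrogenase subunit, was the most abundant at 704 ± 29.4 FPKM over the 8 libraries (SD). Aldoa, the aldolase of muscle and most other tissues, followed at 548 ± 36.3. Eno1, which encodes the widespread alpha enolase, had 395 ± 25.2, Ldha, the muscle-type lactate dehydrogenase subunit, 370 ± 15.3, and Pgk1, which makes the first ATP of the pathway, 337 ± 16.2. Pgk1 exceeded the next gene in order by 19.4-fold. That gene was Hk1, the hexokinase of most tissues, at 17.4 ± 2.19 FPKM, beside Pfkm at 17.3 ± 0.82. The other phosphofructokinase genes, Pfkl and Pfkp, had 14.1 ± 0.83 and 9.26 ± 0.97. Hk2, the insulin-responsive hexokinase of muscle and fat, was at 0.173 ± 0.052 FPKM, or 15 to 39 counts per library, so its values are imprecise. The library ranges of neighbours in this order overlapped for Eno1 and Ldha, for Ldha and Pgk1, and for Hk1 and Pfkm. The other neighbours did not overlap, and Ldha was above Pgk1 in 8 of 8 libraries.

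**Figure D1:**
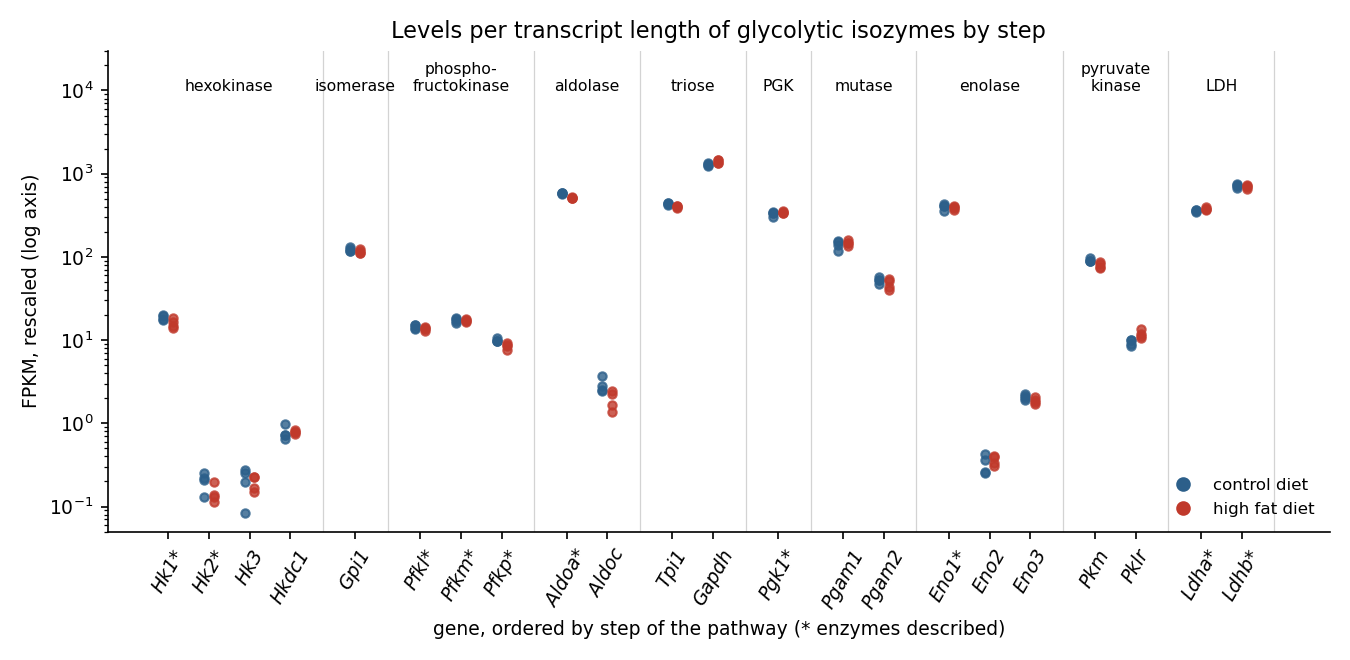
Levels of glycolytic isozymes in FPKM (log axis), rescaled without Rn45s, ordered by step of the pathway, with 1 point per library, blue for the control diet and red for the high fat diet. The 10 enzymes described carry an asterisk, and Gapdh at 1346 FPKM is the highest of the genes drawn.

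Between the diets, 1 of the 10 genes passed the test. Pfkp, the platelet-type phosphofructokinase subunit, fell on the high fat diet, and no gene of the set rose. Calls rest on edgeR's quasi-likelihood test over all genes, with p-values adjusted by the Benjamini-Hochberg method and a threshold of 0.05. Over all 14711 genes tested, 9.99% were called in either direction and 5.13% were called lower, so 1 of 10 is close to the background share. The median log2 fold change of the set was -0.09, beside -0.00227 over all genes tested. In 8 of the 10 genes the fitted change was below 0, where 7422 of the 14711 genes tested were. In 2, Pgk1 and Ldha, it was above 0, and without control J it was above 0 in Eno1 and Ldhb as well. At an unadjusted p under 0.05, 3 genes were lower (Hk1, Pfkp and Aldoa) and 0 were higher, where 14.1% of all genes tested were lower and 13.3% higher at that level. DESeq2's Wald test called 3 of the 10 (Hk1, Pfkp and Aldoa), where it called 12.6% of all genes. Removal of the trend with transcript length gave 2 of 10 against 10.4%, and leaving out high fat G gave 2 of 10 against 6.14%. In other fits 0 of the 10 were called, although Hk2 was too low to be tested in the FPKM fits with a filter. These were the fits without high fat F (4.99% of all genes called), without control J (5.4%) and with both control J and high fat G out (2.83%), and limma on log2(FPKM + 0.1) (6.22%), on log2(FPKM + 1) (6.3%) and on log2(FPKM + 0.1) with no filter (3.12%).

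**Figure D2:**
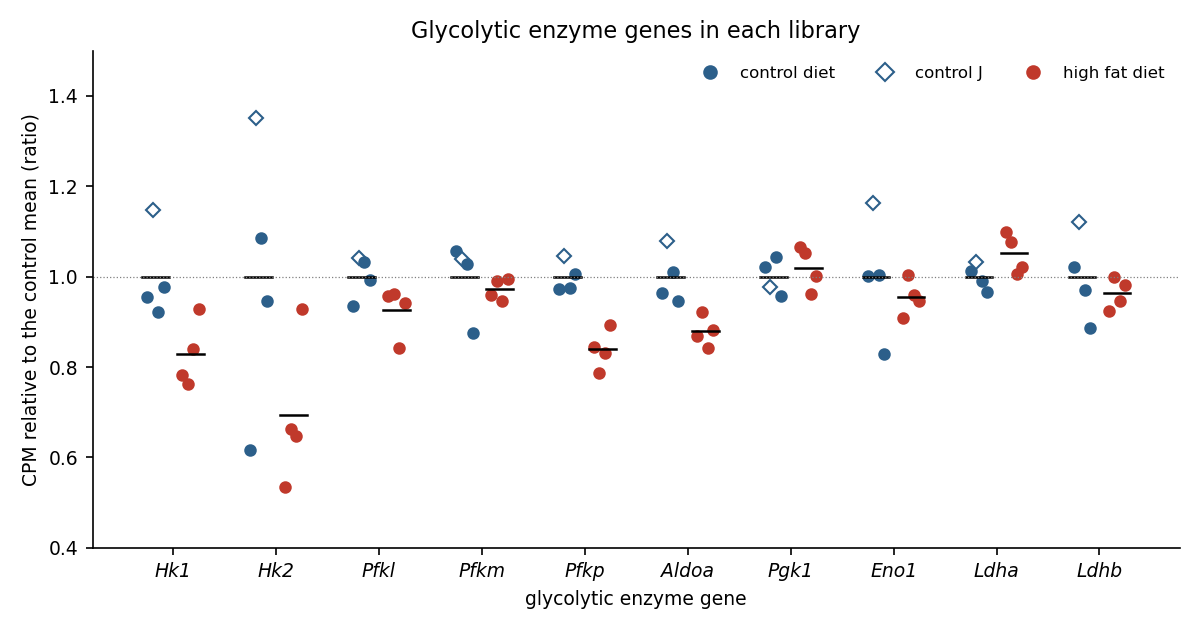
CPM of each of the 10 genes in each library, divided by that gene's mean on the control diet, with 1 point per library (blue control, red high fat, open diamond control J) and a black line at the mean of each diet. Pfkp and Aldoa are the genes whose diets do not overlap, as was seen in 17.5% of all genes tested. The diamond is the highest point for 7 of the 10 genes, where 18.5% of all genes tested were highest in control J.

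Many glycolytic genes are known targets of the hypoxia-inducible factor HIF-1, which binds the core ACGTG or GCGTG. The upstream sequences of 3 members are shown, chosen after their values and matches were seen: Pfkp, the gene called lower, and Pgk1 and Ldha, the genes with fitted changes above 0. Each run is the 250 bases before a RefSeq start in GRCm38.p6, on the gene's strand, 5′ to 3′. Capitals mark ACGTG or GCGTG on either strand, read as CACGT or CACGC on the other strand. The Pfkp window is chr13:6648772-6649021, minus strand, and its last bases overlap the annotated first exon. The Pgk1 window is chrX:106186850-106187099, plus strand, just before the gene. The Ldha window is chr7:46845554-46845803, plus strand, in an intron of a longer annotated transcript. Ldha has a further window, chr7:46846832-46847081, which is not shown and held ACGTG at 0 positions and GCGTG at 1.
Pfkp: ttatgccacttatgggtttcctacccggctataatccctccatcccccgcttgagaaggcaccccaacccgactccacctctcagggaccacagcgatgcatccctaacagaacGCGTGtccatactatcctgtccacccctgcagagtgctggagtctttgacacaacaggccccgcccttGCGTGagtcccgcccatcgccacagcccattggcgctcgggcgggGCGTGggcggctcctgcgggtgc
Pgk1: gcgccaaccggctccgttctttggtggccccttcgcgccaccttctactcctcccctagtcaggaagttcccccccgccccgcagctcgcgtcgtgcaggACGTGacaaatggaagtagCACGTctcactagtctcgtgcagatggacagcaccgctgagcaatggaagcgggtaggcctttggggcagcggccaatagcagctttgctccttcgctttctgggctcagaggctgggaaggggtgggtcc
Ldha: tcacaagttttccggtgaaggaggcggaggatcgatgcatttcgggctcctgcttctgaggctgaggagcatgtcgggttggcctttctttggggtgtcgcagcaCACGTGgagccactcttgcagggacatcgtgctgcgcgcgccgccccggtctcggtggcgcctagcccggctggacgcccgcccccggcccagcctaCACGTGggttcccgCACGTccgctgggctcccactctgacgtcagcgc
The Pfkp window held GCGTG at 3 positions and ACGTG at 0, and the Pgk1 window held ACGTG at 2 positions. The Ldha window shown held ACGTG at 5, where each palindromic CACGTG counts on both strands. All 10 genes had at least 1 window in the RefSeq table, 19 in all. ACGTG was also found in the window of Hk2 (2 positions), whose log2 fold change of -0.47 was the lowest of the set, in 2 windows of Pfkm (2 positions and 1) and in 2 windows of Aldoa (1 position each), both with fitted changes below 0. In all, ACGTG was found in 7 of the 19 windows, from 5 genes, against 16.6% of 32851 mouse windows of the same length. GCGTG was found in 10 of 19, from 7 genes, against 28.2% of all windows. These are matches of letters, and windows of the same gene overlap in part. The ACGTG of the 2 Aldoa windows is the same site. Sites of GCGTG in Pfkm and Eno1 are likewise counted in more than 1 window.

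The phosphofructokinase step joins a phosphate to fructose 6-phosphate, and its enzyme is a tetramer built from liver (Pfkl), muscle (Pfkm) and platelet (Pfkp) subunits. Pfkp (chromosome 13, 6579768 to 6648777, minus strand, GRCm38) was at 37.9, 35.2, 37.3 and 40.1 CPM in high fat A, B, F and G and at 43.6, 46.9, 43.7 and 45.1 CPM in control I, J, L and M. Each of the 4 high fat libraries lay below each control library. Diets that did not overlap were seen in 17.5% of all genes tested, namely 9.2% with the high fat diet lower and 8.31% with it higher. The means were 37.6 ± 1.99 and 44.9 ± 1.54 CPM (SD, n = 4 for each diet), which gave -0.25 ± 0.06 (SE) as the log2 fold change (edgeR, adjusted p = 0.0208). The 95% confidence interval ran from -23.0% to -8.36%. The call was lost when control J was left out (edgeR adjusted p = 0.0532) and when high fat F was left out (0.0577), although the log2 fold change stayed between -0.28 and -0.22 in the 8 fits that left out a library. Pfkp is the 1 gene of the set in the authors' deposited table of comparisons, with a ratio of 0.842, high fat over control. That table compares the same diets and lists 1133 genes, beside 23504 gene symbols in the count table. Its listed genes have a score for equal expression of at most 0.0499.

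The other subunit genes did not pass. Pfkl (chromosome 10, 77986947 to 78010083, minus strand) was at 58.3, 58.7, 51.3 and 57.4 CPM on the high fat diet and at 57.1, 63.4, 62.9 and 60.4 on the control diet. These values overlapped, with a log2 fold change of -0.11 ± 0.06 (SE; adjusted p = 0.27 in edgeR). Pfkm (chromosome 15, 98092589 to 98132451, plus strand) was at 53.8, 55.5, 53.1 and 55.8 CPM against 59.3, 58.3, 57.7 and 49.1. The high fat libraries lay within the control range, whose low end was control M. The interval of the difference in Pfkm ran from -11.9% to 7.64% (adjusted p = 0.753 in edgeR). Among the FPKM of the 3 genes, Pfkm made up 43.6% ± 0.80 on the high fat diet and 41.4% ± 2.37 on the control diet (SD, n = 4). Pfkl made up 34.7% ± 1.30 and 34.7% ± 1.55. The share of Pfkp was 21.6%, 20.1%, 22.4% and 22.4% in high fat A, B, F and G, and 23.3%, 23.9%, 22.8% and 25.3% in the control libraries. The diets did not overlap in this share, which is computed from the same Pfkp values as the call.

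Hexokinase adds the first phosphate to glucose and so holds it in the cell. Hk1 (chromosome 10, 62268855 to 62379908, minus strand) was at 69.3, 67.4, 74.4 and 82.1 CPM on the high fat diet and at 84.5, 101, 81.6 and 86.4 CPM on the control diet. The diets met at their edges, with high fat G above control L and control J above the rest. The means of 73.3 ± 6.59 and 88.5 ± 8.88 CPM (SD, n = 4) gave a log2 fold change of -0.27 ± 0.08 (SE), slightly larger than that of Pfkp. The spread between libraries was wider, and Hk1 did not pass (adjusted p = 0.0624 in edgeR, interval from -26.8% to -5.89%). It was called in 3 of 20 alternative fits, namely DESeq2's Wald test (adjusted p = 0.0316), removal of the length trend (adjusted p = 0.0387) and the edgeR fit without high fat G (adjusted p = 0.0437). Hk2 (chromosome 6, 82725025 to 82774454, minus strand) was at 0.677, 0.839, 0.822 and 1.18 CPM against 0.782, 1.71, 1.38 and 1.1997. Its diets overlapped, and its interval ran from -51.1% to 7.01%. Hk2 made up 0.89% ± 0.13 of the FPKM of both hexokinase genes on the high fat diet and 1.06% ± 0.25 on the control diet (SD, n = 4).

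Aldolase cleaves the phosphorylated sugar into triose phosphates. Aldoa (chromosome 7, 126795234 to 126800751, minus strand) was at 840, 890, 813 and 853 CPM on the high fat diet and at 931, 1042, 976 and 915 CPM on the control diet. All 4 high fat libraries were below all 4 control libraries, as was seen in 9.2% of all genes tested. The log2 fold change was -0.19 ± 0.06 (SE), and Aldoa did not pass (adjusted p = 0.0719 in edgeR, interval from -19.8% to -3.73%). DESeq2's Wald test called it (adjusted p = 0.0243), and the other 19 alternative fits did not. The copies Aldoart1 and Aldoart2 are separate rows of the table and may share reads with Aldoa.

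The next 2 genes lie below the aldolase step. Pgk1 (chromosome X, 106187100 to 106203699, plus strand) was at 704, 695, 635 and 661 CPM against 675, 646, 689 and 633 on the control diet. The diets overlapped almost fully. The log2 fold change was 0.03 ± 0.06 (SE; adjusted p = 0.784 in edgeR), and the interval ran from -6.36% to 11.1%. Eno1 (chromosome 4, 150236721 to 150248879, plus strand) was at 718, 793, 759 and 747 CPM against 792, 919, 794 and 656. Its control libraries spread widely, with a coefficient of variation of 13.6% against 4.12% on the high fat diet, and control J and M were at the extremes. Its log2 fold change of -0.07 became 0.01 without control J, and it did not pass (adjusted p = 0.677 in edgeR, interval from -16.6% to 9.4%). Processed copies of Pgk1, Eno1 and Ldha exist in the genome, so part of their reads could have been shared with such copies.

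Lactate dehydrogenase tetramers mix muscle-type (Ldha) and heart-type (Ldhb) subunits, and heart-type tetramers are associated with tissues that oxidise lactate. Ldha (chromosome 7, 46841475 to 46855627, plus strand) was at 705, 692, 646 and 656 CPM on the high fat diet and at 650, 663, 635 and 619 CPM on the control diet. The diets overlapped, with a log2 fold change of 0.07 ± 0.05 (SE; adjusted p = 0.413 in edgeR, interval from -3.03% to 14.0%). Ldhb (chromosome 6, 142490249 to 142507957, minus strand) was at 931, 1006, 953 and 989 CPM against 1028, 1129, 978 and 893, and all high fat libraries lay within the control range (adjusted p = 0.673 in edgeR, interval from -13.8% to 7.55%). Ldhb made up 64.6% ± 1.34 of the FPKM of both genes on the high fat diet and 66.5% ± 1.52 on the control diet (SD, n = 4). The range of 62.6% to 65.7% overlapped that of 64.7% to 68.4%.

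**Figure D3:**
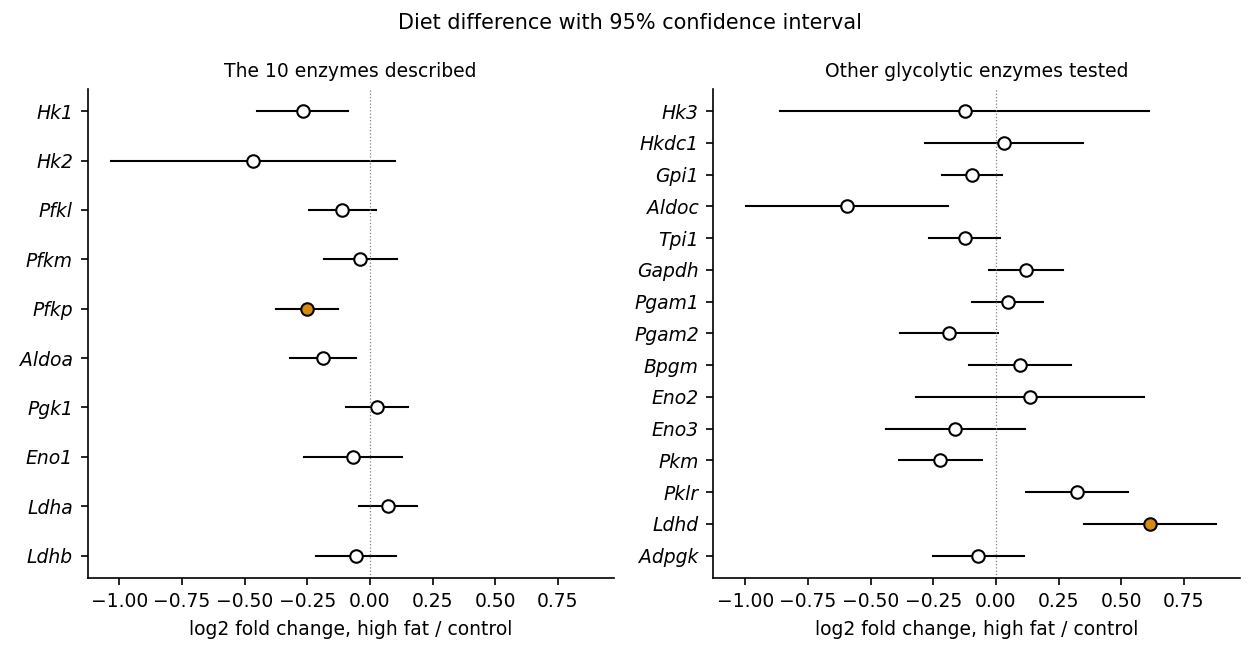
Log2 fold change between the diets (high fat over control) from the edgeR fit for the 10 genes described (left) and the 15 other glycolytic enzyme genes tested (right), with 95% confidence intervals as lines. Filled points passed at an adjusted p under 0.05, namely Pfkp at -0.25 and Ldhd at 0.61.

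The remaining enzymes of the pathway were taken as a list of 18 genes, of which 15 passed the filter on low counts and were tested. In that list 1 rose, 0 fell and 14 did not pass in edgeR, beside 4.86% of all genes called higher and 5.13% called lower, and the median log2 fold change was -0.07. At an unadjusted p under 0.05, 2 were higher and 2 lower. DESeq2 called 2 higher (Ldhd and Pklr) and 1 lower (Aldoc), and limma-voom called 2 higher (Ldhd and Pklr) and 0 lower. Of all genes, DESeq2 called 6.38% higher and 6.18% lower, and limma-voom 4.87% higher and 5.0% lower. The gene that rose was Ldhd, which encodes the mitochondrial dehydrogenase of D-lactate and so stands beside glycolysis rather than within it. Ldhd was at 1003, 995, 1258 and 989 CPM on the high fat diet and at 622, 597, 687 and 865 CPM on the control diet, with no overlap and a difference of 0.61 ± 0.12 (SE) on the log2 scale (edgeR, adjusted p = 0.0118). It was called in 18 of 20 alternative fits, and not with both control J and high fat G out (edgeR adjusted p = 0.0574) or on FPKM with no filter (limma adjusted p = 0.0563). Gapdh, which encodes the glyceraldehyde phosphate dehydrogenase that makes the NADH of the pathway, was at 1815, 1890, 1870 and 1917 CPM against 1629, 1939, 1666 and 1657. The diets overlapped through control J alone, and Gapdh did not pass (log2 fold change 0.12 ± 0.07 SE, edgeR adjusted p = 0.279).

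The pyruvate kinase genes, which were singled out after their values were seen, lay on opposite sides of 0. Pyruvate kinase makes the last ATP of the pathway. Pkm, the form of muscle and most tissues, was at 222, 211, 193 and 225 CPM on the high fat diet and at 242, 283, 240 and 229 CPM on the control diet. The high fat libraries all lay below the control libraries, as was seen in 9.2% of all genes tested. Pkm did not pass (log2 fold change -0.22 ± 0.08 SE, adjusted p = 0.0847 in edgeR), nor in any of 20 alternative fits. Pklr, the form of liver and red cells, was at 31.7, 35.0, 38.6 and 34.2 CPM against 26.4, 32.1, 29.7 and 23.9. Here high fat A lay below control J. Pklr missed the threshold narrowly (log2 fold change 0.32 ± 0.09 SE, adjusted p = 0.0502 in edgeR) and was called in 8 of 20 alternative fits. The authors' deposited table lists Pklr with a ratio of 1.25. Pkm made up 86.9% ± 1.71 of the FPKM of both genes on the high fat diet (88.5%, 86.9%, 84.6% and 87.8%) and 90.7% ± 0.60 on the control diet (90.9%, 90.6%, 89.9% and 91.3%). No high fat library reached a control library in this share. No test was made of it, since the pair was chosen for these values.

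Genes that regulate or feed the pathway gave 0 calls in edgeR, DESeq2 and limma-voom. Those tools called 9.99%, 12.6% and 9.87% of all genes tested, so 0 calls in lists this short is close to the background share. At an unadjusted p under 0.05 in edgeR, 13.3% of all genes tested were higher and 14.1% lower. Of 6 regulator genes 5 were tested, and none passed in edgeR, where 1 was higher at an unadjusted p under 0.05. DESeq2 and limma-voom called 0 of them as well. Pfkfb2, which makes and degrades fructose 2,6-bisphosphate, the activator of phosphofructokinase, had the highest FPKM of them, with means of 57.9 ± 2.12 and 55.5 ± 3.54 CPM (SD over 4 libraries; edgeR adjusted p = 0.564). Of 6 carriers of pyruvate and lactate 0 passed, with 1 higher and 2 lower at an unadjusted p under 0.05 in edgeR, and DESeq2 and limma-voom called 0. Mpc1, a subunit of the mitochondrial pyruvate carrier, had means of 317 ± 8.12 and 308 ± 27.6 CPM (SD over 4 libraries; edgeR adjusted p = 0.737).

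The enzymes that run the bypass reactions of gluconeogenesis showed more calls than the glycolytic genes. Of 6 such genes 3 rose, 1 fell and 2 did not pass, beside 4.86% of all genes called higher and 5.13% called lower. The list was chosen with earlier results of these data known, so these counts describe it and test nothing. Pck1, phosphoenolpyruvate carboxykinase, was at 4180, 4841, 3681 and 4635 CPM on the high fat diet and at 2888, 2714, 2569 and 2426 CPM on the control diet (log2 fold change 0.71, edgeR adjusted p = 0.00228). Pcx, pyruvate carboxylase, rose by 0.47 on the log2 scale (adjusted p = 0.00618 in edgeR). Both kept their calls in 20 of 20 alternative fits. Fbp1, the fructose bisphosphatase that reverses the phosphofructokinase step, rose by 0.31 (adjusted p = 0.0412 in edgeR), while its muscle form Fbp2 fell by 0.55 (adjusted p = 0.0211). Fbp1 was called in 2 of 8 fits without a library and Fbp2 in 4 of 8. The adjusted p reached 0.0988 for Fbp1, without high fat A, and 0.0573 for Fbp2, without control J.

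A list of 12 hypoxia response genes outside glycolysis was also chosen with earlier results known. It gave 2 rises, 1 fall and 9 genes that did not pass, beside 4.86% of all genes called higher and 5.13% called lower. At an unadjusted p under 0.05, 6 of the 12 were higher and 2 lower, where 13.3% and 14.1% of all genes tested were. DESeq2 and limma-voom each gave 3 rises and 1 fall, with Ddit4, a stress-induced inhibitor of mTORC1 signalling, as the further rise. Their shares over all genes were 6.38% higher and 6.18% lower in DESeq2, and 4.87% and 5.0% in limma-voom. In edgeR Ddit4 had a log2 fold change of 0.48 ± 0.15 (SE; adjusted p = 0.0592). Egln3, a prolyl hydroxylase that marks HIF for degradation, was at 14.2, 16.9, 15.0 and 15.6 CPM on the high fat diet and at 7.51, 6.54, 7.97 and 8.24 CPM on the control diet (log2 fold change 1.01, adjusted p = 0.00109 in edgeR). Adm, which encodes the vasodilator peptide adrenomedullin, rose by 0.95 on the log2 scale (adjusted p = 0.00194 in edgeR). Both were called in 20 of 20 alternative fits. P4ha1, a collagen prolyl hydroxylase, fell by 0.25 (adjusted p = 0.0422 in edgeR) and lost that call in each of the 8 fits without a library, with adjusted p between 0.0508 and 0.0988. Ndrg1, the most abundant of the list, ranged from 1585 to 3059 CPM against 1246 to 1890 and did not pass (adjusted p = 0.118 in edgeR). The 9 genes of the list that did not pass included Vegfa and Pdk1.

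**Figure D4:**
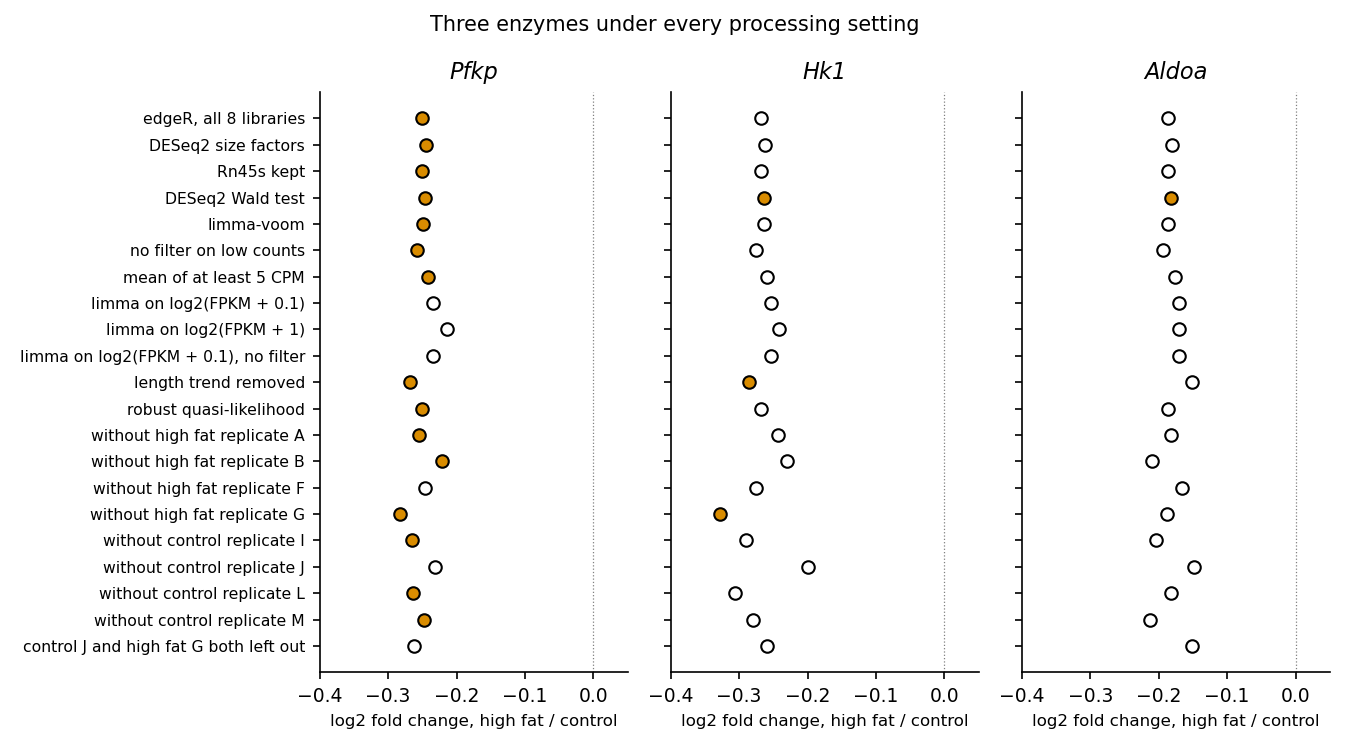
Log2 fold change (high fat over control) of Pfkp, Hk1 and Aldoa in the edgeR fit of all 8 libraries and in 20 alternative fits, with filled points where the adjusted p was under 0.05. All points lie below 0, and Pfkp is filled in 14 of the 20 alternatives, Hk1 in 3 and Aldoa in 1.

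Kidney cell types differ in the isozymes they use, and several of their markers moved between the diets as well. Marker calls here are from edgeR, beside 4.86% of all genes called higher and 5.13% called lower. Among single genes tested, the diets did not overlap in 9.2% with the high fat diet lower and in 8.31% with it higher. In bulk tissue, fewer cells of a type and less RNA per cell cannot be told apart. Of 8 thick ascending limb markers 4 fell (Slc12a1, Cldn16, Cldn19 and Kcnj1), and their summed level ran from 4486 to 5409 CPM on the high fat diet against 5462 to 6182. Of 8 intercalated cell markers 2 fell, with sums of 376 to 412 against 422 to 466 CPM. In both lists the high fat libraries lay below the control libraries, as they did for Pfkp. Without its most abundant gene the intercalated sum overlapped between the diets, at 288 to 324 against 318 to 356 CPM, and the thick ascending limb sum did not. Of 7 principal cell markers 3 fell, and the sums of 315 to 385 and 351 to 459 CPM overlapped, but not without the most abundant gene, at 225 to 249 against 261 to 292 CPM. Of 10 proximal tubule markers 2 rose and 2 fell, and the sums overlapped at 33169 to 34555 against 30635 to 34034 CPM. Without the most abundant gene, Lrp2, the proximal sum was higher in all high fat libraries, at 23039 to 24599 against 19845 to 22429 CPM. Sums for distal convoluted tubule, podocyte, endothelium, mesangium with smooth muscle, and macrophage overlapped between the diets, and 1 of their 31 markers, Acta2, fell. The part of these cell types in the values of Pfkp, Hk1 and Aldoa was not tested.

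**Figure D5:**
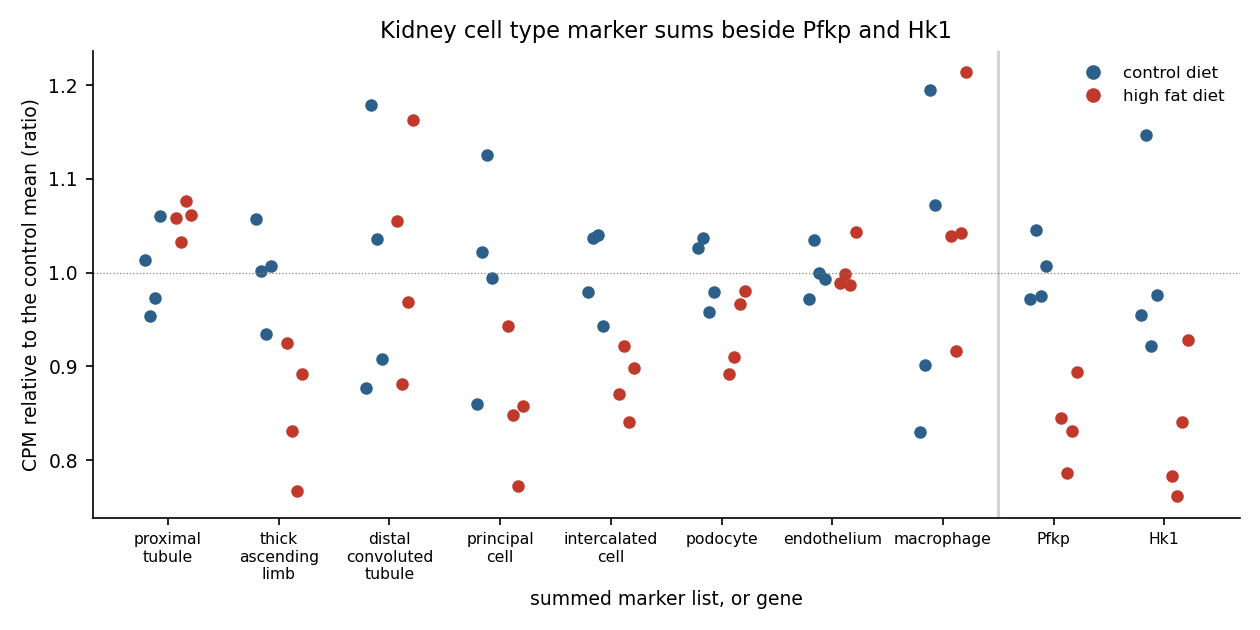
Summed CPM of marker lists for 8 kidney cell types, and CPM of Pfkp and Hk1, in each library, divided by the control mean (blue control, red high fat, 1 point per library). The thick ascending limb and intercalated cell sums and Pfkp are the columns in which the red points all lie below the blue points.

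Single libraries weighed on the set. Control J held the highest value of the 8 libraries for 7 of the 10 genes (Hk1, Hk2, Pfkl, Pfkp, Aldoa, Eno1 and Ldhb), where 18.5% of all genes tested were highest there. Control M held the lowest value for 5 of the 10, against 8.31% of all genes tested. Control J is the library with the large Rn45s share. It also shared with high fat G a high level of red cell genes, with sums of 1869 and 4267 CPM against 778 to 1090 CPM in the other 6 libraries. High fat G had the highest Hk1 of its diet, as control J had of its own, and the part of red cells in these values was not tested. With both libraries left out the log2 fold change of Hk1 was -0.26 and that of Pfkp was -0.26, each about as large as with all 8, with adjusted p = 0.068 and 0.0579 in edgeR. That of Aldoa was -0.15 (adjusted p = 0.228 in edgeR).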

How the data were processed

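RNA of 8 outer cortex samples was sequenced from libraries made with a ribosomal RNA removal kit from 1 ug of total RNA, per the labels' protocols. The submitters' processing notes name CASAVA 1.8.2, RSEM 1.2.9 and the build mm10. Per gene symbol, the deposited tables hold expected counts from RSEM and FPKM. A further table deposited by the authors compares the diets by a ratio (high fat to control) and by a score for equal expression. The tool behind it is not given in these sources. Reads that match several similar genes are divided among them by RSEM.

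Expected counts were rounded, Rn45s was removed, and edgeR 4.0.16 in R 4.3.3 was run (TMM factors, filterByExpr, quasi-likelihood F test, diet as the only term). All 10 genes passed that filter. P-values were adjusted over the 14711 genes tested. Standard errors were taken from the log2 fold change and its F statistic, and 95% intervals use them with the fit's degrees of freedom. Levels are TMM-normalized counts scaled to a common library size (CPM). Isozyme shares and marker sums are descriptions. The edgeR code was tested on simulated data. Gene bounds are from GENCODE M21 (GRCm38, the assembly of mm10), and upstream sequences are from RefSeq (GRCm38.p6). Of 153 list genes, 152 were matched by symbol or RefSeq synonym.

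1 gene of the list of other glycolytic enzymes is not reported here and is left out of that list's counts. The members and lists were chosen with earlier results of these data known. Named genes are the 10 members and, in each pathway list, up to 4 called genes with the smallest p and the gene with the highest FPKM. Alternatives were DESeq2 1.42.0, limma 3.58.1 (voom, and log2 FPKM with pseudocounts of 0.1 and 1), other normalizations and filters, a length correction, and leaving out libraries. The genes Pkm, Pklr, Gapdh and Aldoc, the pyruvate kinase share, the promoters printed and the 3 genes of the plot of alternative fits were chosen after values were seen. Motifs were picked for HIF-1, GGGCGG and TATAAA were also looked at and are not reported, and no full motif search was made.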

Additional observations from a re-analysis of the deposited data

Results flagged for a closer look

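Of 86 groups of 4 libraries examined for a value far from the rest, 6 were marked, where chance marks about 5%. Pfkm was at 49.1 CPM in control M, away from the other control libraries at 57.7 to 59.3 CPM. Ldhd was at 1258 CPM in high fat F, above the 989 to 1003 CPM of the rest of its diet. Gapdh was at 1939 CPM in control J against 1629 to 1666 CPM in the other control libraries. It did not pass between the diets (adjusted p = 0.279 in edgeR). Aldoc, the brain-type aldolase gene, was at 6.88 CPM in control L against 4.69 to 4.96 CPM in the other control libraries, and it did not pass in edgeR (log2 fold change -0.59, adjusted p = 0.0634), while DESeq2's Wald test called it lower (adjusted p = 0.0301). The summed red cell markers were at 4267 CPM in high fat G against 842 to 1090 CPM in the rest of its diet, and at 1869 CPM in control J against 778 to 834 CPM in the other control libraries.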

How the results depend on the processing

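Of 1469 genes called with all 8 libraries, the count went to 819 with limma on log2(FPKM + 0.1), 830 with a pseudocount of 1, 602 with no filter on FPKM and 417 with both control J and high fat G out, and ran from 739 to 1528 in the fits without 1 library. In the same order, the count called higher went from 715 to 364, 369, 276 and 244 and ran from 421 to 759 without 1 library, and the count called lower went from 754 to 455, 461, 326 and 173 and ran from 318 to 769. Of the 10 glycolytic genes, 1 was called; this became 3 in DESeq2, 2 with the length trend removed, 0 with each of the 3 FPKM fits and 0 with both those libraries out, and ran from 0 to 2 in fits without 1 library. In the FPKM fits Pfkp had adjusted p of 0.1, 0.101 and 0.126 in limma. Log2 fold changes near 0 changed sign: Eno1 ran from -0.146 to 0.014 without 1 library (above 0 without control J) and was 0.018 with both libraries out. Ldhb ran from -0.109 to 0.0042 (above 0 without control J) and Mpc1 from -0.019 (without control M) to 0.079. The cause was not tested. Of 197 alternative values of the 10 genes, 184 kept their direction and their side of the threshold. Most of these come from the 9 genes not called with all 8 libraries, which count as kept when they stay uncalled. Pfkp, the 1 gene called, kept its call in 14 of 20 alternatives. The shares of Hk2, Pfkl, Pfkm, Pfkp and Ldhb moved by less than 1 SD with counts over transcript length in place of FPKM, and the Pkm share was computed from FPKM only. No paired analysis was possible because the library letters differ between the diets. Hk2, at 15 to 39 counts per library, was too low for the fits with a minimum level.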
